A study of Mus musculus with 13 samples.

Results

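The genes described here are 9 genes of the contractile apparatus that smooth muscle and myoepithelial cells share, and the oxytocin receptor gene Oxtr. The 9 are Acta2, Actg2, Myh11, Cnn1, Tagln, Mylk, Myl9, Smtn and Cald1. All 10 were chosen by name among the 23364 genes listed in each of 13 samples. RNA-seq was performed on whole submandibular salivary glands of C57BL/6 mice at E14.5 (3 samples, each a pool of 3 animals), E16.5 and E18.5 (2 samples each, pools of 2 animals), P5 (2 samples), 4wk (2 samples) and 12wk (2 samples). The 4wk and 12wk mice were male and the sex of the embryos and P5 pups was not determined, so that sex and adult age cannot be told apart. The labels name no mutation and no treatment, and the E14.5, E16.5 and E18.5 samples are called embryo (7 samples), with 4wk and 12wk called adult (4 samples). Levels are FPKM, that is fragments scaled to the length of the gene and the size of the library, which allows genes of different length to be compared. All 10 genes were listed in all samples, and 9 of the 10 passed the filter of at least 1 FPKM in at least 1 sample and were tested among 14650 genes. Oxtr did not pass, since its highest value was 0.284 FPKM. Basal epithelial keratins and Trp63 were set beside the myoepithelial label. Their presence cannot check it, since they were also present at E14.5, where Cnn1 was at most 0.655 FPKM. Means at E14.5 and 12wk were 14.6 and 2.96 FPKM for Trp63, and 13.5 and 30.4 for Krt5. Krt5 was between 8.81 and 34.8 FPKM, Krt14 between 22.6 and 68.9 FPKM and Trp63 between 2.41 and 16.6 FPKM, so that basal epithelial RNA was present in every sample. Most of these genes are also expressed in vascular smooth muscle and pericytes. In whole glands, fewer cells of a type and less RNA per cell cannot be told apart.

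Myoepithelial cells are epithelial cells of the basal layer that wrap around the acini and intercalated ducts of salivary glands and contract to help expel saliva. Contraction in such cells follows the smooth muscle scheme. An agonist raises calcium, calcium-bound calmodulin activates the kinase encoded by Mylk, and this kinase phosphorylates the regulatory light chain (Myl9) of smooth muscle myosin (heavy chain Myh11), which then pulls on actin filaments built from Acta2 and Actg2. Calponin (Cnn1), transgelin (Tagln), smoothelin (Smtn) and caldesmon (Cald1) bind these filaments. The oxytocin receptor is the receptor through which myoepithelial cells of the lactating mammary gland contract.

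The depth and scaling of the samples bear on what follows. Reads on genes, estimated from the steps of low FPKM values, were between 5820000 and 48240000 per sample, and the shallowest samples were 4wk replicate 1 and 4wk replicate 2 (7960000 reads). The 10 highest genes of a sample held 5.93 to 14.35% of all FPKM in 6 embryo samples and little more in E18.5 replicate 2, against 29.2 and 31.1% in the P5 samples. The 4wk samples had 60.3 and 61.1% and the 12wk samples 49.9 and 48.1%. Where a few genes hold more of a library, values scaled to its total are lower for all other genes. Factors that bring the median gene to the same level (median-of-ratios factors) were 1.148 to 1.38 in the embryo and 0.617 to 0.714 in the adult. The median log2 fold change of all tested genes was -0.74 from embryo to adult and -0.53 from P5 to 4wk with the deposited FPKM, and -0.07 and -0.06 after division by these factors. Both values are given below wherever the scaling moved a call or a direction. Levels, their order and their overlaps are those of the deposited FPKM unless rescaling is named. Shares of genes within 1 sample do not depend on it.

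Among the thick filament genes, Myh11, the heavy chain found in smooth muscle and myoepithelial cells, was 1.31, 1.33 and 1.77 FPKM for E14.5, 1.81 and 4.62 for E16.5, 10.1 and 8.71 for E18.5, 29.7 and 33.2 for P5, 32.3 and 39.9 for 4wk, and 69.9 and 63.4 for 12wk. The means followed age from E14.5 to 12wk, and only the samples of P5 and 4wk overlapped among neighbouring ages. The ratio of the 12wk mean to the E14.5 mean was 45.4 as deposited and 90.6 after rescaling.

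The regulatory light chain gene Myl9 had another course. Its FPKM were 88.1, 131 and 123 for E14.5, 192 and 163 for E16.5, 182 and 220 for E18.5, 150 and 159 for P5, 60.2 and 94.7 for 4wk, and 119 and 90.8 for 12wk. As deposited the highest mean was at E18.5 and the lowest at 4wk, and the 12wk samples lay within the range of E14.5. After rescaling the mean was still highest at E18.5 (171) but lowest at E14.5 (87.0, against 119 at 4wk), and both 12wk samples, at 174 and 143, lay above the E14.5 range of 65.6 to 101. After rescaling the 12wk mean was 1.82 times the E14.5 mean, against 0.918 times as deposited. Mylk, the kinase gene, which also encodes a longer non-muscle kinase that gene totals do not separate, was 1.97, 3.76 and 4.02 FPKM for E14.5, 5.34 and 8.89 for E16.5, 16 and 15.2 for E18.5, 16.8 and 16.4 for P5, 11 and 16.1 for 4wk, and 27.8 and 22.8 for 12wk. Its 12wk samples were above all others.

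Of the smooth muscle actins, Acta2 was the more abundant. Its FPKM were 55.3, 28.6 and 30.2 for E14.5, 104 and 144 for E16.5, 153 and 156 for E18.5, 163 and 183 for P5, 96.8 and 170 for 4wk, and 222 and 150 for 12wk. All E14.5 samples were below all later ones, while from E16.5 onward the neighbours in the order of means overlapped except P5 and E18.5. Actg2, the gamma smooth muscle actin of visceral muscle, was 4.26, 3.93 and 4.75 FPKM for E14.5, 9.50 and 14.2 for E16.5, 14 and 12.7 for E18.5, 10.2 and 10.7 for P5, 8.89 and 8.03 for 4wk, and 16.1 and 12.0 for 12wk. Its E14.5 samples were again the lowest. Actg2 made up 4.5 to 13.6% of the summed FPKM of both actin genes, with 12.1 and 13.6% in 2 of the E14.5 samples and no more than 9.01% in any later sample.

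The filament-binding proteins fell into different courses. Cnn1, which inhibits the myosin ATPase on actin filaments, was 0.365, 0.655 and 0.584 FPKM for E14.5, 2.98 and 4.14 for E16.5, 22.6 and 29.1 for E18.5, 30.9 and 34.2 for P5, 33.9 and 39.0 for 4wk, and 75.3 and 55.3 for 12wk. The 12wk mean was 122 times the E14.5 mean as deposited and 242 times after rescaling, and this ratio was the largest of the 10 members under either scaling. Tagln, an actin-bundling protein, was 19.0, 17.8 and 18.8 FPKM for E14.5, 75.4 and 66.0 for E16.5, 94.5 and 118 for E18.5, 76.6 and 82.5 for P5, 83.1 and 114 for 4wk, and 217 and 169 for 12wk. The E14.5 samples were the lowest and the 12wk samples the highest, with a ratio of means of 10.4 as deposited and 20.8 after rescaling.

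Smtn and Cald1 had their highest deposited mean before birth. Smtn, a protein of contractile smooth muscle, was 18.9, 19.6 and 21.7 FPKM for E14.5, 20.3 and 36.3 for E16.5, 18.1 and 13.6 for E18.5, 14.8 and 12.0 for P5, 8.43 and 8.98 for 4wk, and 16.3 and 11.4 for 12wk. Cald1, which gives a smooth muscle and a non-muscle caldesmon that gene totals do not separate, was 65.2, 74.4 and 76.3 FPKM for E14.5, 66.2 and 82.2 for E16.5, 95.5 and 86.1 for E18.5, 70.1 and 72.2 for P5, 59.4 and 46.1 for 4wk, and 43.0 and 35.5 for 12wk. For both genes the adult samples were below all embryo samples as deposited, except that Smtn at 12wk replicate 1 lay above E18.5 replicate 2. After rescaling the 12wk mean was 1.37 times the E14.5 mean for Smtn and 1.09 times for Cald1. The rescaled mean of Cald1 was highest at 4wk (78.9, against 76.6 at E18.5), and that of Smtn was 21.3 at E16.5 and 21.0 at 12wk.

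Oxtr was close to 0 throughout. Its FPKM were 0.284, 0.13 and 0.115 for E14.5, 0.0664 and 0.211 for E16.5, 0.177 and 0.101 for E18.5, 0.118 and 0.161 for P5, 0.188 and 0.0275 for 4wk, and 0.0201 and 0.0462 for 12wk. With a gene length of 4572 bases, chosen as the length that made the values of all 13 samples whole reads within 0.032 of a read, the samples together held 201 reads. The annotated exons span 5120 bases, so that these read numbers are estimates. The adult samples had 5, 1, 2 and 6 reads, and the embryo samples between 11 and 36. The 95% Poisson intervals, which cover counting error only, ran from 0.061 to 0.439 FPKM for 4wk replicate 1 and from 0.00242 to 0.0722 FPKM for 12wk replicate 1. Neighbouring time points in the order of means overlapped in every case. As deposited both 12wk samples were below all embryo and P5 samples, while 4wk replicate 1 lay within the embryo range. After rescaling 12wk replicate 2, at 0.073, lay above E16.5 replicate 1, at 0.0533. The rescaled value of 4wk replicate 1, 0.263, lay above the highest embryo value, 0.211 in E14.5 replicate 1. Oxtr was not tested, since no sample reached the level of 1 FPKM.

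**Figure D1:**
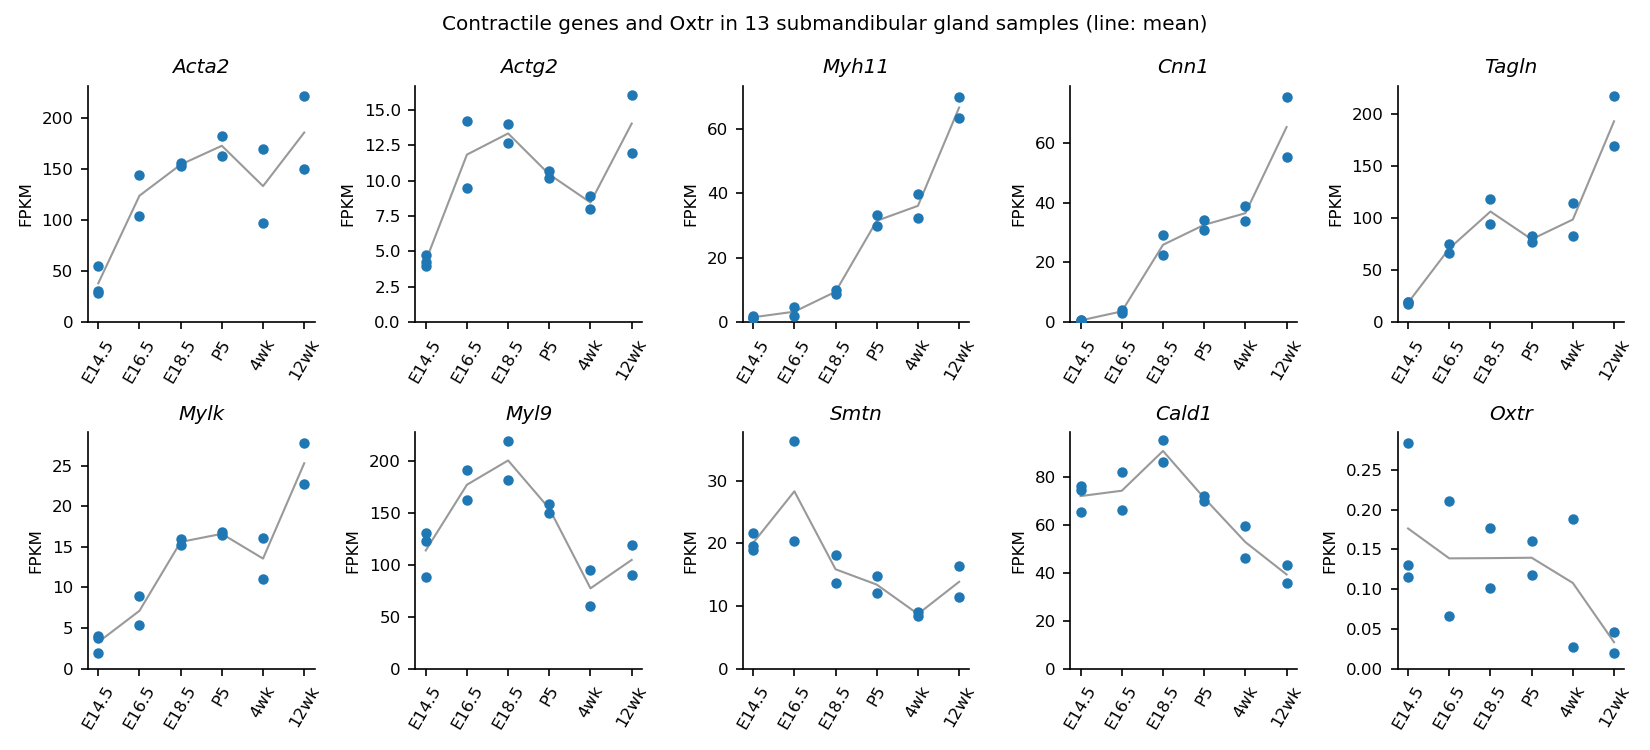
Deposited FPKM (y axis, linear from 0, a scale per gene) of the 10 genes against time point (x axis), with a point for each of 13 samples and a line through the means. Myh11 and Cnn1 are near 0 at E14.5 and highest at 12wk, Cald1 and Myl9 are highest at E18.5, and Oxtr stays below 0.3 FPKM.

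The first comparison asks what changed as the gland passed from E14.5 to E16.5, when the branching buds begin to differentiate. Acta2, Actg2, Cnn1 and Tagln rose, that is both smooth muscle actins and 2 of the 4 filament-binding proteins. These 4 of 9 tested members were at least 2-fold higher with an adjusted p under 0.1 (limma on log2(FPKM + 1), Benjamini-Hochberg), where 4.17% of all 14650 genes were higher by the same rule, 0.983% lower and 5.15% either. Tagln was higher by 1.87 on the log2 scale (SE 0.16, limma adjusted p = 4.3e-05), Acta2 by 1.72 (SE 0.30, limma adjusted p = 0.0038), Cnn1 by 1.57 (SE 0.18, limma adjusted p = 0.00024) and Actg2 by 1.25 (SE 0.17, limma adjusted p = 0.00085). On the linear scale the E16.5 mean of Cnn1 was 6.66 times that of E14.5, since the added 1 FPKM shrinks the change of low genes. The log2 differences of the other 5 were 0.93 for Mylk, 0.69 for Myh11, 0.65 for Myl9, 0.42 for Smtn and 0.04 for Cald1. Mylk had an adjusted p of 0.027 in limma and missed the fold threshold only. Actg2 was at 0.99 without E16.5 replicate 2, and Mylk passed at 1.25 and Myh11 at 1.19 without E16.5 replicate 1. Mylk also passed without E14.5 replicate 2 (1.04) or E14.5 replicate 3 (1.07). The median of the 9 members was 0.93, against 0 for all genes.

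Skeletal muscle RNA varied strongly among these early samples and belongs beside this result. The summed FPKM of 12 skeletal muscle markers, such as Ckm, the muscle creatine kinase, was 697, 318 and 231 at E14.5 and 1190 and 1270 at E16.5. It was 9.74 and 56.3 at E18.5. Acta2 was highest among the E14.5 samples in replicate 1, the sample with the highest skeletal sum, whereas Tagln was between 17.8 and 19.0 FPKM in all 3. Myh11, Cnn1, Mylk, Myl9, Smtn and Cald1 were lowest in that same replicate. Luminal epithelial markers, such as the simple keratins Krt8 and Krt18, also moved over this step. Of 10, 6 were higher and 0 lower, with a median log2 difference of 1.76, and their summed FPKM was 344, 649 and 621 for E14.5 against 1440 and 1850 for E16.5. The part of skeletal muscle and of epithelial cells in the E16.5 differences was not tested.

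From E16.5 to E18.5 Cnn1, Myh11 and Mylk rose. Cnn1 rose by 2.56 on the log2 scale (SE 0.19, limma adjusted p = 2.9e-05), Myh11 by 1.39 (SE 0.26, limma adjusted p = 0.0089) and Mylk by 1.07 (SE 0.28, limma adjusted p = 0.037). They were 3 of 9 members, where 1.09% of all genes were higher, 1.85% lower and 2.94% either. The ratio of mean FPKM was 7.26 for Cnn1, 2.93 for Myh11 and 2.19 for Mylk. The smooth muscle actins differed by 0.34 (Acta2) and 0.18 (Actg2), Tagln by 0.58, Cald1 by 0.29, Myl9 by 0.18 and Smtn by -0.75, and none of these 6 passed. The call for Myh11 rested on E16.5 replicate 1, without which its difference was 0.89, and that for Mylk was lost without any 1 of E16.5 replicate 1, E18.5 replicate 1 and E18.5 replicate 2. Smtn passed at -1.16 without E16.5 replicate 1. Over the same interval all 12 skeletal muscle markers fell (11 of 12 after rescaling), by a median of 4.55 on the log2 scale. The part of skeletal muscle in the E18.5 differences was not tested.

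Across birth, from E18.5 to P5, Myh11 alone passed. It rose by 1.64 on the log2 scale (SE 0.26, limma adjusted p = 0.0023), a ratio of mean FPKM of 3.33, where 2.07% of all genes were higher, 2.97% lower and 5.04% either. The log2 differences of the other 8 were 0.33 for Cnn1, 0.16 for Acta2, 0.08 for Mylk, -0.23 for Smtn, -0.32 for Actg2, -0.35 for Cald1, -0.37 for Myl9 and -0.41 for Tagln.

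From P5 to 4wk, 1 of 9 members passed with the deposited FPKM and 0 after rescaling. Myl9 fell by 1.03 on the log2 scale (SE 0.24, limma adjusted p = 0.004) as deposited, where 24.3% of all genes passed in either direction, 2.19% higher and 22.1% lower, and its difference was -0.36 after rescaling (limma adjusted p = 0.34). Its call was also lost without P5 replicate 2 (-0.99) or 4wk replicate 1 (-0.70), the shallowest sample. After rescaling Tagln differed by 0.96 (SE 0.22, limma adjusted p = 0.0055), Myh11 by 0.85 (SE 0.24, limma adjusted p = 0.018) and Cnn1 by 0.81 (SE 0.20, limma adjusted p = 0.0073), all short of the fold threshold. As deposited the same genes differed by 0.29, 0.19 and 0.16. The other 5 turned sign, with Acta2 at -0.43 as deposited and 0.24 after rescaling, Actg2 at -0.28 and 0.34, Mylk at -0.30 and 0.34, Smtn at -0.56 and 0.06, and Cald1 at -0.44 and 0.23. After rescaling, 15.1% of all genes passed in either direction, 6.37% higher and 8.72% lower.

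Between 4wk and 12wk, both adult ages, 0 of 9 members passed, where 5.15% of all genes did, 2.68% higher and 2.48% lower. Unadjusted p-values of limma were under 0.05 for 7 members, 6 of them higher at 12wk, and adjusted p-values under 0.1 for 5. The shares of all genes under these levels alone were not counted, so neither count is a result about the members. Tagln was higher by 0.97 on the log2 scale (SE 0.18, limma adjusted p = 0.0054), Cnn1 by 0.81 (SE 0.19, limma adjusted p = 0.021) and Actg2 by 0.66 (SE 0.19, limma adjusted p = 0.046), each under the fold threshold. Without 4wk replicate 2, Tagln (1.20), Mylk (1.13) and Myh11 (1.02) passed, and without 12wk replicate 2, Tagln (1.15) and Cnn1 (1.03) did. The differences of the others were 0.87 for Myh11, 0.87 for Mylk, 0.60 for Smtn, 0.50 for Acta2, 0.45 for Myl9 and -0.41 for Cald1. The median of the members was 0.66, against 0 for all genes.

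Over the whole course, from the mean of the embryo ages to that of the adult ages, Myh11, Cnn1, Tagln and Mylk rose under either scaling. The 4wk means of Tagln (98.7 FPKM) and Mylk (13.6) were below those at E18.5 (106 and 15.6) as deposited, with overlapping samples. Rescaled, the 4wk means were 151 and 20.7, against 90.3 and 13.2 at E18.5. As deposited 4 of 9 members were higher and 0 lower, where 5.4% of all genes were higher, 37.5% lower and 42.9% either. Myh11 rose by 3.42 on the log2 scale (SE 0.16, limma adjusted p = 4.4e-09), Cnn1 by 3.12 (SE 0.12, limma adjusted p = 9.6e-10), Tagln by 1.38 (SE 0.11, limma adjusted p = 3.3e-07) and Mylk by 1.25 (SE 0.17, limma adjusted p = 3.6e-05). After rescaling these were 4.25, 3.93, 2.31 and 2.10, and Acta2 (1.72, limma adjusted p = 3.4e-05) and Actg2 (1.12, limma adjusted p = 1.6e-06) passed as well, making 6 of 9, where 13.4% of all genes were higher, 14.3% lower and 27.7% either. As deposited Acta2 differed by 0.78 and Actg2 by 0.27. Myl9, Smtn and Cald1 took the sign of the scaling, with -0.83, -0.85 and -0.78 as deposited and 0.10, 0.03 and 0.15 after rescaling. The median of all genes was -0.74 as deposited and -0.07 after rescaling. A second rescaling, to totals without the highest genes of each sample, gave 5 of 9 members called in place of 6. Under it 5562 of 14650 genes passed, 1594 higher and 3968 lower, with a median of -0.43. Adult and embryo samples share the fit with the single steps above and are not independent of them.

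**Figure D2:**
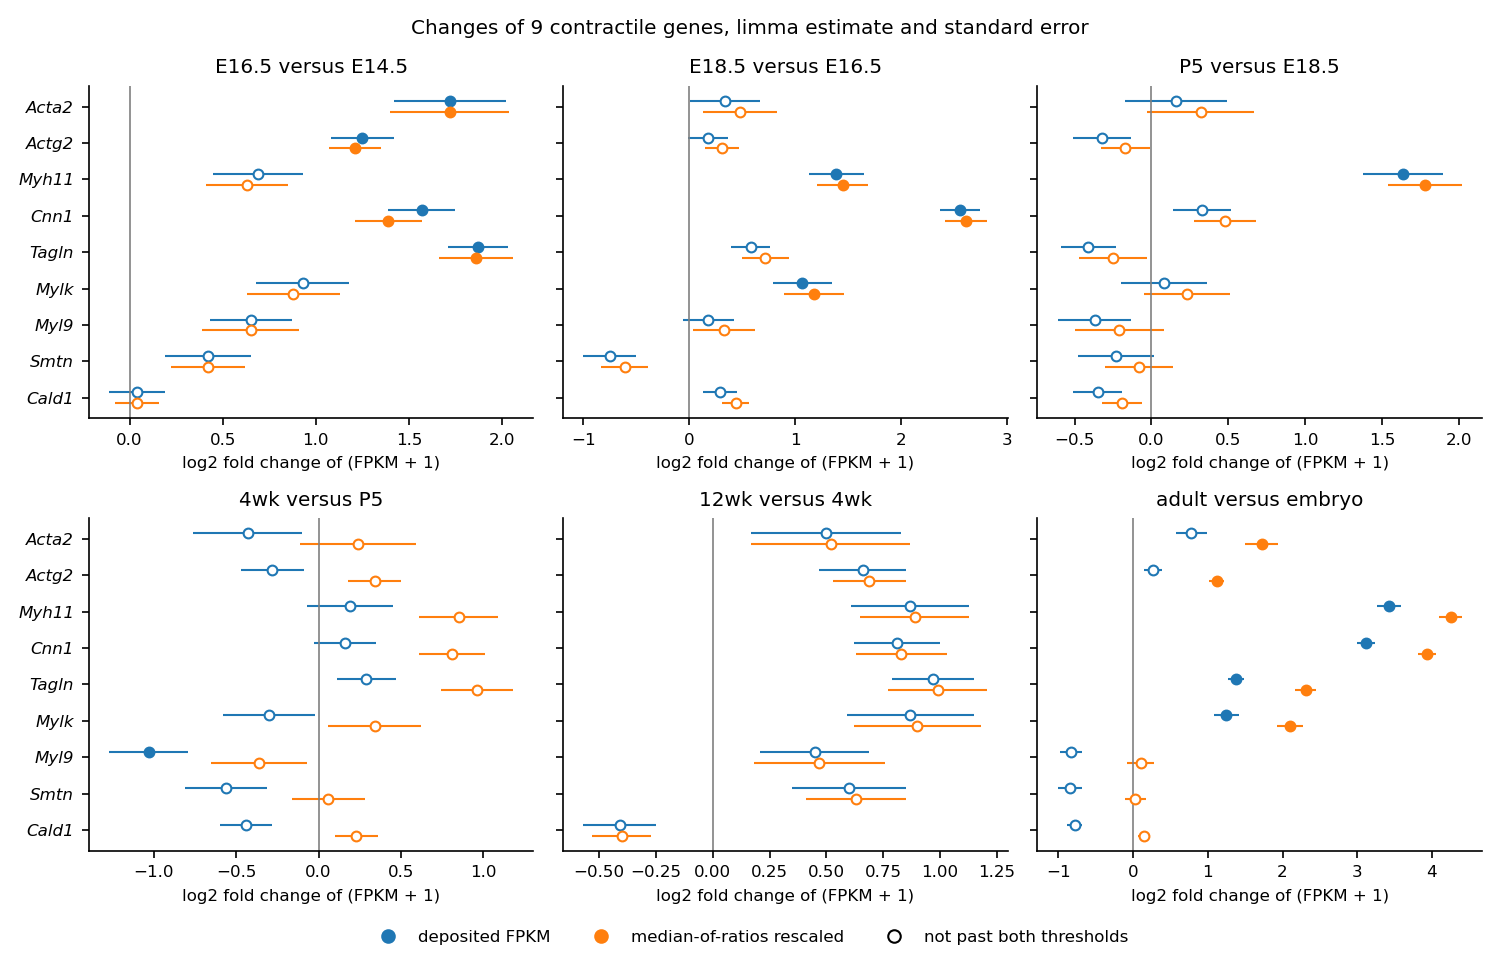
log2 fold change of (FPKM + 1) on the x axis with its standard error (bars) for the 9 tested members, in a panel per comparison, from deposited FPKM (blue) and after median-of-ratios rescaling (orange). Filled points passed both thresholds; Myh11, Cnn1, Tagln and Mylk are filled under both scalings from embryo to adult.

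Within their protein families, which removes the scaling of a sample, the smooth muscle forms held larger shares at later ages. These shares were chosen after values had been seen and carry no test. Myh11 made up 1.05 to 1.37% of the summed FPKM of Myh11 and the non-muscle heavy chains Myh9, Myh10 and Myh14 at E14.5. Its share was 2.57 and 3.43% for E16.5, 10.5 and 11.7% for E18.5, 30.0 and 32.8% for P5, 48.0 and 58.8% for 4wk, and 66.5 and 67.3% for 12wk. No sample of an age overlapped with the next age. In the same samples Myh10 had a mean of 54.9 FPKM at E14.5 and 0.803 FPKM at 12wk.

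Cnn1 followed a similar course among the calponins Cnn1, Cnn2 and Cnn3. Its share was 0.0871 to 0.172% for E14.5, 0.781 and 1.2% for E16.5, 7.64 and 9.35% for E18.5, 16.8 and 18% for P5, 31.7 and 36.1% for 4wk, and 52.8 and 48.4% for 12wk. Acta2 and Actg2 together held 1.33 to 2.33% of the FPKM of all 6 actin genes for E14.5, 4.94 and 4.9% for E16.5, 10.1 and 11% for E18.5, 13.7 and 15.6% for P5, 19.9 and 23.4% for 4wk, and 33.3 and 28.4% for 12wk. All 4 other actin genes were lower in the adult under either scaling, where 37.5% of all genes were lower as deposited and 14.3% after rescaling. Among them the cytoplasmic actins Actb and Actg1 fell from embryo to adult, by 2.13 and 1.96 on the log2 scale as deposited and by 1.19 and 1.02 after rescaling.

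Tagln and Myl9 had shares that were already sizeable in the embryo. Tagln held 11.8 to 17.2% of the FPKM of Tagln and Tagln2, a transgelin found in many cell types, for E14.5, and 66.3 and 63.5% for 12wk, with 35.5 and 39.2% for E18.5 and 35.5 and 35.0% for P5 in between. Myl9 held 28.7 to 33.4% of the regulatory light chains Myl9, Myl12a and Myl12b at E14.5 and 48.0 and 46.5% at 12wk. Its share at 4wk, 39.9 and 44.7%, overlapped with those at P5 and E18.5.

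**Figure D3:**
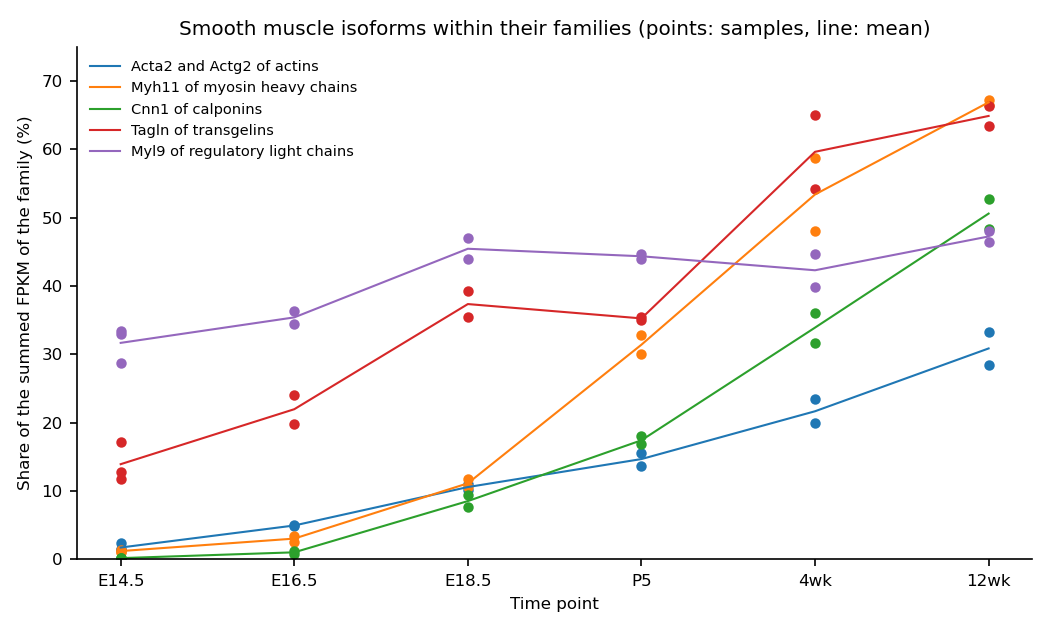
Share of the smooth muscle form in the summed FPKM of its family (y axis, percent) against time point (x axis), with a point per sample and a line through the means. Myh11 goes from about 1.1% of the heavy chains to 67.3% at 12wk, while Myl9 stays between 28.7 and 48.0%.

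The makeup of the set itself differed between ages. At E14.5 Myl9 held 34.6 to 46.6% of the summed FPKM of the 10 genes and Cald1 25.6 to 27.1%, whereas at 12wk Myl9 held 14.7 to 14.9% and Cald1 5.34 to 5.82%. Tagln took 26.9 to 27.8% and Acta2 24.5 to 27.5% at 12wk. Cnn1 went from at most 0.233% at E14.5 to 9.06 and 9.34% at 12wk. The summed FPKM of the set was 255, 281 and 281 at E14.5, 607 and 660 at E18.5, and 806 and 611 at 12wk, so that E18.5 and 12wk overlapped. After rescaling it was 190, 217 and 216 in the first, 497 and 575 in the second, and 1180 and 965 in the last of these.

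**Figure D4:**
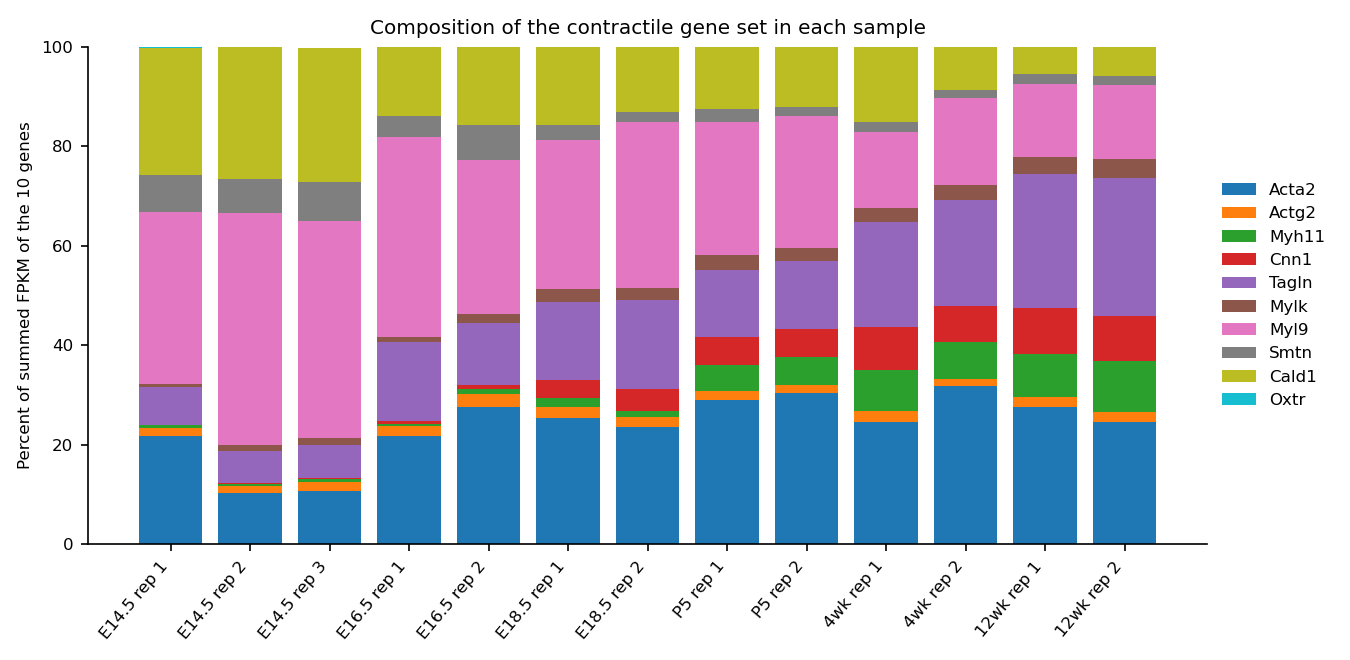
Percent of the summed FPKM of the 10 genes (y axis) held by each gene (colours) in each of 13 samples (x axis, bars). Myl9 and Cald1 take most of the bar at E14.5, and Tagln and Acta2 take the most at 12wk.

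The counts from embryo to adult that follow stand beside 5.4% of all genes higher and 37.5% lower as deposited, and 13.4% higher and 14.3% lower after rescaling, with the medians of all genes at -0.74 and -0.07. Of 18 other filament and cytoskeletal genes of smooth muscle, 5 were higher and 0 lower for E16.5 than for E14.5. Over that step 4.17% of all genes were higher and 0.983% lower. The 5 were Tagln2, Pdlim3, Des, Tpm2 and Ldb3, and at least the last 3 are also expressed in skeletal muscle. For E18.5 against E16.5, 0 were higher and 3 lower, where 1.09% of all genes were higher and 1.85% lower. The 3 that fell were again Des, Tpm2 and Ldb3, by 2.63, 1.49 and 2.64 on the log2 scale. From embryo to adult 2 were higher and 10 lower as deposited, and 3 higher and 4 lower after rescaling, with medians of -1.15 and -0.26. The 2 that rose were Synm, an intermediate filament protein, by 1.47 (SE 0.14), and Lmod1, which nucleates actin filaments in smooth muscle, by 1.27 (SE 0.12). Lmod1 had means of 0.545 FPKM for E14.5, 2.29 for E18.5, 2.80 for P5 and 6.11 for 12wk. Cnn2, a calponin of many cell types, fell by 2.96 as deposited and by 2.05 after rescaling.

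In the myosin phosphorylation and RhoA pathway, through which light chain phosphatase is restrained, 0 of 17 tested genes were higher and 5 lower from embryo to adult as deposited, and 1 higher and 1 lower after rescaling, with medians of -0.65 and 0.06. The gene lower under either scaling was Myh10, which fell by 3.87 as deposited and by 3.19 after rescaling. Ppp1r14a, the inhibitor of light chain phosphatase known as CPI-17, rose by 1.11 (SE 0.33) from E14.5 to E16.5. Of 10 genes for channels and Gq signalling, 8 were tested, since Kcnmb1 and Trpc6 were under 1 FPKM in all samples, and 1 was higher and 2 lower from embryo to adult as deposited, with 3 higher and 0 lower after rescaling and medians of -0.62 and 0.14. Plcb4, a phospholipase C that Gq activates, rose by 1.94 (SE 0.13), with a mean of 24.2 FPKM at E14.5 and 155 FPKM at 12wk.

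The receptors of contractile agonists did not move together. Of 13 genes, 10 were tested, since Adra1b, Tacr1 and Bdkrb2 were under 1 FPKM in all samples, and from embryo to adult 1 was higher and 5 lower as deposited (2 higher and 4 lower after rescaling), with medians of -0.91 and -0.55. Adra1a, the alpha-1A adrenoceptor, rose by 3.48 (SE 0.12) as deposited and by 4.09 after rescaling. Its mean was 0.196 FPKM for E14.5, 0.170 for E18.5, 1.44 for P5, 9.28 for 4wk and 15.7 for 12wk, and it rose for P5 and again for 4wk, by 1.07 and 2.07. The receptor genes Agtr1a for angiotensin, Avpr1a for vasopressin and Ednra for endothelin fell by 2.64, 2.48 and 1.88 as deposited and by 2.13, 1.98 and 1.22 after rescaling. Chrm3, the muscarinic receptor of salivary secretion, had means of 3.15 FPKM at E14.5 and 8.09 FPKM at 12wk and passed only after rescaling (1.27). Adra1a and Chrm3 are also expressed in acinar cells, and the cells of origin cannot be told apart in whole glands.

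Serum response factor is the transcription factor that drives smooth muscle contractile genes by binding the CArG box, with myocardin (Myocd) or the related factors Mkl1 and Mkl2 as coactivators. Of 3 tested genes of this group 2 were lower from embryo to adult as deposited (Srf by 1.54, Mkl1 by 1.29) and 0 after rescaling, with medians of -1.29 and -0.50. Myocd was not tested, with a highest mean of 0.159 FPKM at E14.5 and 0 FPKM in both 4wk samples. To show the element beside the genes, RefSeq promoter windows of the GRCm38.p6 build, 250 bases before to 50 after the start, were searched on both strands for the CArG box, first exactly and then with 1 other base in its core. Windows were found for Acta2, Cnn1, Mylk, Myl9, Smtn, Cald1 and Oxtr, but not for Actg2, Myh11 and Tagln. Of these 7 genes 1, Myl9, held an exact match, which 1.63% of 32851 windows held. A match with at most 1 other base was held by 2, Myl9 and Acta2, and by 9.98% of windows. Members are counted by gene and the shares by window, and a gene can have several windows. Sequence outside the windows was not searched, so the element can lie elsewhere in a gene without a match. Stretches of 100 bases around the matches of Myl9 and Acta2 are printed 5′ to 3′ on the strand of the gene with the matches in capitals. They are chr2:156775289-156775388 (plus strand) for Myl9 and chr19:34255394-34255493 (minus strand) for Acta2.
Myl9: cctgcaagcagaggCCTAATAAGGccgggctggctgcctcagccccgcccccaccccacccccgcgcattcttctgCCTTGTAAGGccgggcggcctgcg
Acta2: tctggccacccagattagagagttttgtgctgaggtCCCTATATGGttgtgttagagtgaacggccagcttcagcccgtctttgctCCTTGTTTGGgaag
The first match of Myl9 was the exact one, at -161 to -152 from the start, and the second, at -99 to -90, had 1 other base. Both matches of Acta2, at -84 to -75 and -34 to -25, had 1 other base. Acta2 and Myl9 differed in their course over the ages, as given above.

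Markers of the other cells that express contractile genes moved with age. From embryo to adult 0 of 9 pericyte and vascular mural markers were higher and 7 lower as deposited, and 0 higher and 5 lower after rescaling, with a median log2 difference of -1.86 and -1.34. Over all genes 37.5% were lower as deposited and 14.3% after rescaling. Their summed FPKM was 103 to 138 in the embryo, 92.1 and 116 at P5, and 22.3 to 50.4 in the adult. Pdgfrb and Notch3, receptors of mural cells, fell by 2.50 and 2.35 as deposited and by 1.72 and 1.62 after rescaling. The list did not move as a whole. Rgs5, a pericyte regulator of G protein signalling, differed by -0.13 as deposited and 0.72 after rescaling, and Higd1b by -0.15 and 0.28, and neither passed.

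Of 10 basal epithelial markers 1 was higher and 3 lower from embryo to adult as deposited, and 2 higher and 0 lower after rescaling, with medians of -0.76 and 0.10. Cdh3 (P-cadherin), Trp63, the basal transcription factor, and Krt14 fell by 1.70, 1.51 and 1.01 as deposited and differed by -0.97, -0.75 and -0.09 after rescaling, where none of the 3 passed. Lamb3, a laminin chain of the epithelial basement membrane, rose by 1.16 (SE 0.25) as deposited and by 2.01 after rescaling. Krt5, the basal keratin, had means of 13.5 FPKM for E14.5, 22.9 for P5, 14 for 4wk and 30.4 for 12wk. After rescaling, where Krt5 was the other marker higher in the adult, these means were 10.2, 21.7, 21.1 and 46.0. Between 4wk and 12wk Krt5 rose by 1.05 (SE 0.34). It was the only 1 of the 10 basal markers to pass over that step, with 0 lower and a list median of 0.32. Of all genes 2.68% were higher over the same step. Fibroblast markers, summed, were 2190 to 2960 FPKM in the embryo and 318 to 557 in the adult, with 6 of 7 lower under either scaling and medians of -2.19 and -1.31. Skeletal muscle markers were lower in 10 of 12 genes under either scaling, with medians of -2.98 and -2.71. Of 6 endothelial markers 6 were lower as deposited and 3 after rescaling, with medians of -1.62 and -0.85. Of 10 luminal epithelial markers 3 were higher and 1 lower as deposited, and 5 higher and 1 lower after rescaling, with medians of 0.24 and 1.17. Klk1, a kallikrein of the granular ducts, rose by 9.55 (SE 0.16). The part of these cell types in the contractile gene differences was not tested.

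**Figure D5:**
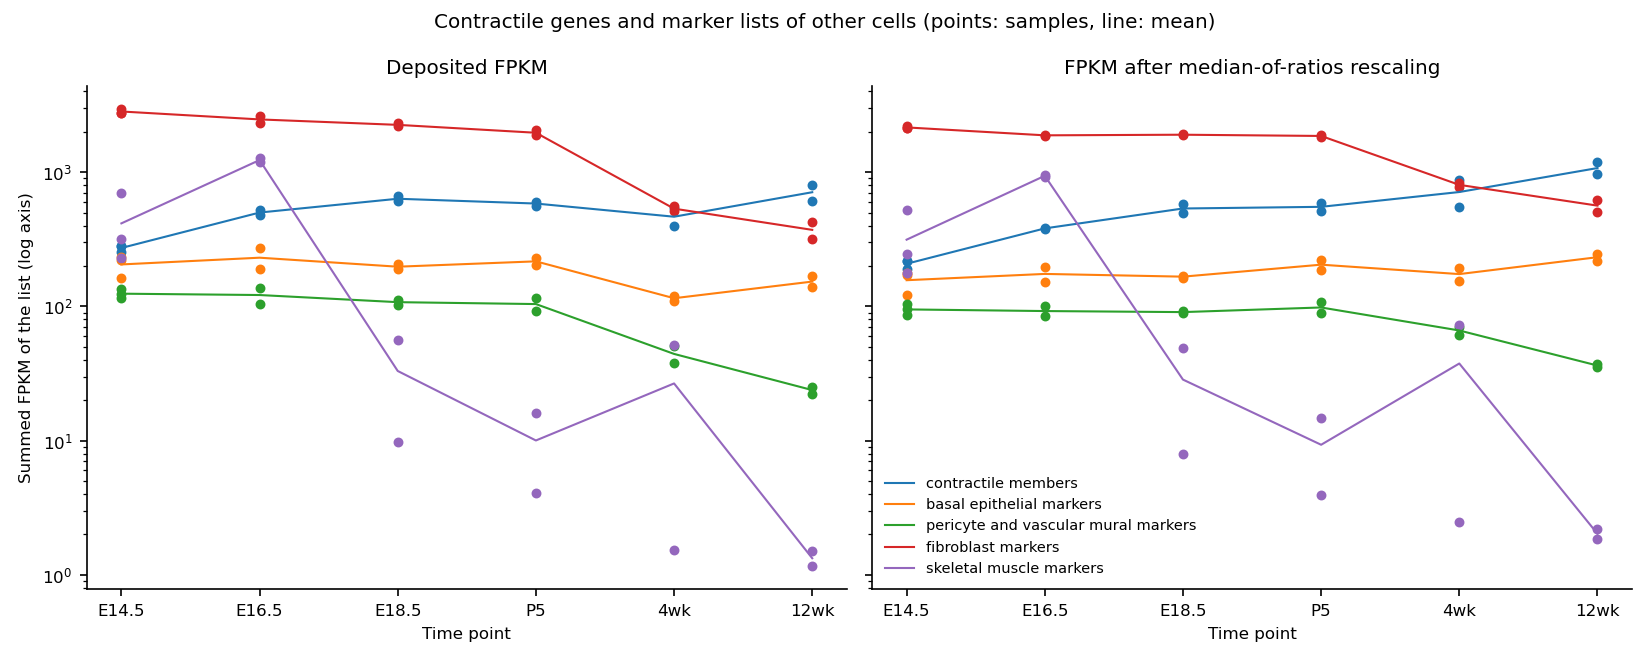
Summed FPKM of the 10 genes and of marker lists (y axis, logarithmic) against time point (x axis). Values are as deposited (left) and after median-of-ratios rescaling (right), with a point per sample and a line through the means. Mural markers are 22.3 to 50.4 FPKM in the adult against 103 to 138 in the embryo, and the skeletal list drops between E16.5 and E18.5.

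Over the 13 samples, the genes outside the set with a pattern most like Acta2 by Pearson r of log2(FPKM + 1) were Rhou (0.982), Klc4 (0.955), Chad (0.94), Fam160a1 (0.94) and Enpp5 (0.935). Among the members Tagln had 0.915, Actg2 0.896, Mylk 0.86, Cnn1 0.856, Myh11 0.761, Myl9 0.204, Cald1 -0.271 and Smtn -0.321. The order depended on the scaling. After rescaling the same 5 genes had 0.924, 0.934, 0.959, 0.968 and 0.955, and the search over all genes was not repeated. The rescaled values of the members were 0.956 for Tagln, 0.949 for Actg2, 0.932 for Cnn1, 0.922 for Mylk, 0.882 for Myh11, 0.667 for Myl9, 0.484 for Cald1 and 0.084 for Smtn. These points share ages and libraries and the values are descriptions. For Oxtr the genes most alike were 3830408C21Rik (0.908), Aqp11 (0.907), Pcdhga4 (0.9), Tti2 (0.896) and Adamtsl1 (0.887), and all rest on the few Oxtr reads given above.

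In the mm9 build, the GENCODE annotation places Acta2 at chr19:34315580-34329826, Actg2 at chr6:83462899-83486259, Myh11 at chr16:14194620-14291501, Cnn1 at chr9:21903725-21914074, Tagln at chr9:45737711-45744141, Mylk at chr16:34745296-35002520, Myl9 at chr2:156601156-156607394, Smtn at chr11:3417526-3440615, Cald1 at chr6:34548500-34725473 and Oxtr at chr6:112423678-112440884. Tagln overlaps Pcsk7 on the other strand, and the kit did not mark strand, so reads in the overlap cannot be assigned to either gene. Sequences of 50 bases shared with another gene made up 1.04% of Tagln (with Pcsk7), 0.4% of Acta2 (with Actg1) and 0.39% of Myh11 (with Myh9 and Myh10), and none were found for the other members.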

How the data were processed

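RNA was measured in 13 whole submandibular gland samples by unstranded 50 bp single-end sequencing. The authors aligned reads to mm9 with TopHat2 2.0.13 and Bowtie2 2.2.6, counted them with featureCounts without reads mapping to several places or genes, and deposited FPKM per gene and sample. The authors describe median normalization between samples by the DESeq method (DESeq2 1.10.1) before FPKM were calculated. The deposited FPKM did not match that description, since their median-of-ratios factors ran from 0.617 to 1.38 where factors near 1 would follow, and behaved as scaled to the total of each library, so results are given under both scalings. From them log2(FPKM + 1) was computed for genes of at least 1 FPKM in at least 1 sample and fitted in limma 3.58.1 (R 4.3.3) with a mean for each time point and a variance trend. Adult versus embryo is the mean of 4wk and 12wk minus the mean of E14.5, E16.5 and E18.5. A call needed an absolute log2 fold change of 1 and a Benjamini-Hochberg adjusted p under 0.1, over all 14650 genes. The fit was tested on simulated data. Rescaled values were divided by median-of-ratios factors over 13039 genes above 0 in every sample. p-values measure the spread between samples, some of which are pools. The depth, 5820000 to 48240000 reads on genes, limits values under about 1 FPKM most at 4wk. The rule for naming genes took all tested members in each comparison, up to 4 called genes with the largest change in each other list and comparison, undetected genes, and the 5 genes most like Acta2 and Oxtr; not all list genes it allows are named. Lmod1, Synm, Chrm3, Rgs5 and Higd1b were named after their values were seen. The members and the 13 lists were chosen with earlier results of these data known. The alternatives were another pseudocount, other filters, other scalings, another threshold, no trend, a replicate block and leaving out each sample. For adult versus embryo only, the samples of a stage were also taken as replicates.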

Additional observations from a re-analysis of the deposited data

Results flagged for a closer look

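In 2 of the 20 sets of samples examined (10 genes in the 7 embryo and the 4 adult samples), a sample stood apart from the others, where chance flags about 1 in 20. For Smtn in the embryo the gap of the highest sample to the next was 0.643 of the whole range, since E16.5 replicate 2 was at 36.3 FPKM and the other 6 samples were between 13.6 and 21.7 FPKM. For Oxtr in the adult the gap was 0.845 of the range, since 4wk replicate 1 was at 0.188 FPKM and the others at 0.0201 to 0.0462 FPKM. That value rests on 5 reads in the shallowest sample. Both sets pool several ages.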

How the results depend on the processing

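Of 1197 values of members under alternatives, 1146 kept their direction and side of the threshold, 18 passed newly, 10 were lost and 23 turned sign. The cause was not tested. Many of these values could not turn sign, so the 1146 are no measure of stability. Other filters, another threshold, no trend, and leaving out a sample of an age outside a comparison leave a log2 fold change as it is. Median-of-ratios rescaling turned Acta2 (0.24), Actg2 (0.34), Mylk (0.34), Smtn (0.06) and Cald1 (0.23) at 4wk versus P5, and Myl9 (0.10), Smtn (0.03) and Cald1 (0.15) at adult versus embryo. With the replicate block added, the values were 0.24, 0.34, 0.34, 0.06 and 0.23, and 0.12, 0.05 and 0.16. Rescaling without the highest genes turned Actg2 (0.01) and Mylk (0.00) at 4wk versus P5, Cald1 at E16.5 versus E14.5 (-0.11) and Smtn at P5 versus E18.5 (0.09). With samples left out in turn, Cald1 at E16.5 versus E14.5 was -0.11 (without E16.5 replicate 2) to 0.19, with -0.03 without E14.5 replicate 1, and Actg2 at E18.5 versus E16.5 was -0.09 (without E16.5 replicate 1) to 0.45. The number of members called at 4wk versus P5 was 0 under median-of-ratios rescaling, with or without the replicate block, and without the highest genes, and 0 to 1 when samples were left out in turn (0 without P5 replicate 2 or 4wk replicate 1). At 12wk versus 4wk it was 0 to 3, with 3 without 4wk replicate 2 and 2 without 12wk replicate 2. All genes called at 4wk versus P5 numbered 3556 as deposited, 2211 after rescaling and 5767 with a pseudocount of 0.1. With that pseudocount they were 1183 against 755 at E16.5 versus E14.5, 1163 against 738 at P5 versus E18.5 and 1658 against 755 at 12wk versus 4wk. At adult versus embryo they were 4058 after rescaling against 6288. Same-numbered samples of different ages had a mean correlation of -0.016 in their deviations, from -0.35 to 0.27, and others a mean of 0.012. In ages with 2 samples the deviations are opposites, so these means mirror each other and cannot show whether replicate numbers pair samples. With the replicate block Mylk passed at E16.5 versus E14.5 (1.07), and no other call of a member changed with the block. Mylk also passed there with a pseudocount of 0.1 (1.12), for 5 members in place of 4. Depth limits Oxtr, with 1 to 36 reads a sample.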
